A study of Mus musculus with 24 samples.

Results

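Whole retinas of rd10 mice that had moved from darkness into room light without drug were compared with retinas of wild-type (WT) mice by bulk RNA sequencing. The comparison used 12 of the study's 24 retinas, the 4 labelled as wild type and the 8 labelled as rd10 on vehicle diet. The labels alone set the group of each retina, while the comparison was chosen with earlier results of these data known. Every nuclear gene of the deposited count table entered, 20763 of 31346 after a filter on low counts. Of the other retinas, 4 from rd10 mice kept in darkness (rd10 DR) are set beside the results where stated, and 8 from rd10 mice on a drug diet entered only where all 24 retinas were scaled or fitted together.

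All rd10 animals carry the rd10 allele of Pde6b, which encodes the catalytic beta subunit of the rod cGMP phosphodiesterase, on a C57BL/6J background, and the WT animals were C57BL/6J. The vehicle animals were dark-reared and then moved on postnatal day 29 to a vivarium with cyclic light. The sample records used here give the same day for the WT animals, although their condition label reads only wild type and holds no day. The paper describes this rearing for the rd10 animals of the experiment and does not state it for WT, so the light history of the WT animals is uncertain. The vehicle animals ate the base diet that carried no drug from day 28. The study's methods place collection on day 37 and the labels end the light period on day 36. Light-exposed rd10 animals had undergone photopic electroretinography, while the WT animals had anaesthesia of a similar length. The rd10 DR animals never left darkness and were collected on day 28 by the methods, although their label reads day 30, so that group differs from the vehicle group in age as well as in light. Each retina came from a separate mouse, 2 of the 4 WT and 4 of the 8 vehicle mice being female. Column names of the vehicle retinas carry the prefix RD8 (1 retina), RD9 (3) or RD10 (4) and those of the WT retinas carry B6. No source used here says what the prefix marks, so that across the comparison it cannot be told apart from the genotype.

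Rods turn light into a fall in cGMP: light activates transducin, transducin activates the phosphodiesterase, and the cGMP-gated channels of the outer segment close. Where the phosphodiesterase fails, cGMP and calcium in the rod rise and the rod dies, and cones, which depend on rods for support, are lost later. Müller glia and microglia are known to respond to dying photoreceptors in many forms of retinal degeneration. Dark rearing is known to slow rod loss in rd10 mice, and transfer to light to speed it.

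The table held 56799680 to 78770995 nuclear counts per retina, and mitochondrial counts added 2.43 to 3.80% of all counts. A test across all genes (edgeR quasi-likelihood, Benjamini-Hochberg adjusted p below 0.05) called 6563 genes higher (31.6% of those tested) and 6275 lower (30.2%) in the vehicle retinas, and these shares are the background for every count of genes below. Beyond 2-fold, by a test against that fold, 407 genes (1.96%) were higher and 596 (2.87%) were lower. The groups did not overlap in 8746 genes (42.1%): in 4521 (21.8%) every vehicle retina lay above every WT retina, and in 4225 (20.3%) every one lay below. Values are CPM, the counts of a gene relative to the total of its library, scaled by the trimmed mean of M values (TMM), and log2 fold changes are vehicle minus WT with their standard error. The median log2 fold change over all genes was 0.015 with TMM and 0.218 when counts were scaled by library size alone, and under that scaling the called genes divided into 9337 higher and 3574 lower, so the direction of small changes rests on the scaling.

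Many calls were of small differences. Among 12117 genes whose log2 fold change lay within 0.5 of 0, 2209 were called higher and 3222 lower, whereas among 133 genes beyond 3 on that scale 96 were higher and 36 lower. The most abundant genes went down: of 83 genes with at least 1000 CPM in the higher group, 62 (74.7%) were called lower and 18 higher. Of 14910 protein-coding genes, 5624 were higher and 4565 lower, while among 932 antisense genes 161 were higher and 273 lower. For 3933 genes (18.9%), the 95% interval of the difference lay within a 1.25-fold change in either direction.

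**Figure D1:**
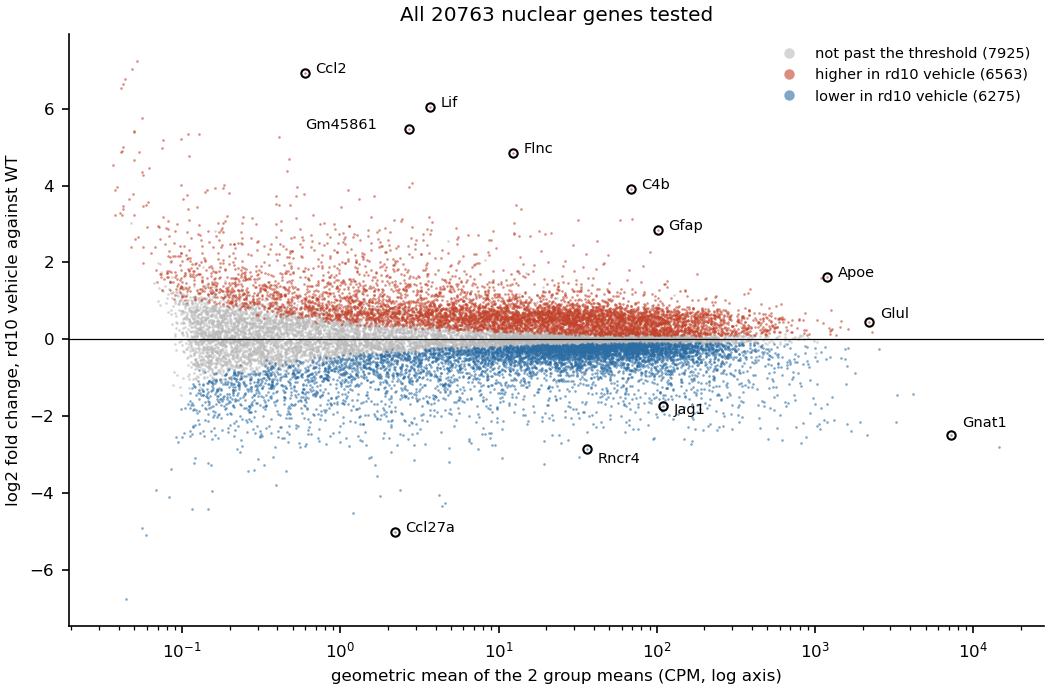
Log2 fold change of each of the 20763 tested genes (vertical axis, vehicle minus WT) against its geometric mean level in CPM (horizontal axis, log scale), coloured by call. The 6275 genes called lower reach the highest levels, with Gnat1 toward the right, and 7925 genes did not pass the test.

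Rod transcripts carried the largest absolute change. The 32 genes of the lists for the cGMP cycle, for transducin and its shutoff and for the disc took 7.40 ± 0.34% (SD, n = 4) of the nuclear counts in WT and 1.94 ± 0.60% (SD, n = 8) in the vehicle retinas. Within the vehicle group that share ran from 1.17% in retina 5 to 2.79% in retina 7, below the lowest WT retina at 7.06%. In a bulk sample, fewer rods and less transcript per rod cannot be told apart. All 32 genes were called lower against a background of 30.2%, with medians of -2.31 for the cGMP and calcium cycle, -2.18 for transducin and shutoff, and -2.06 for disc structure, where the median over all genes was 0.015. Without TMM scaling all 32 were still lower.

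**Figure D2:**
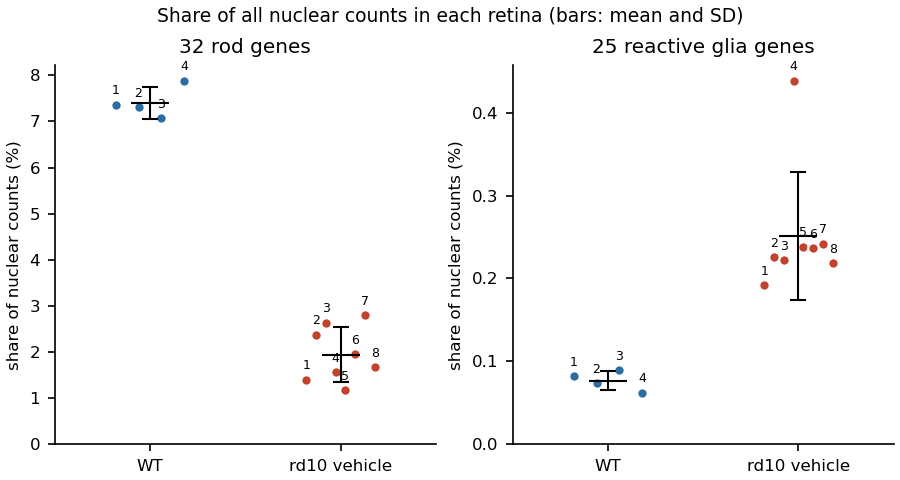
Share of nuclear counts, in percent, taken by 32 rod genes and by 25 reactive glia genes, a panel each, with a point for each of the 4 WT and 8 vehicle retinas and bars for the mean ± SD. The rod share lies between 7.06 and 7.88% in WT and between 1.17 and 2.79% in the vehicle group, and vehicle retina 4 stands at 0.439% of counts in reactive glia genes.

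Gnat1 (GRCm38 chr9:107674474-107679712, − strand), the alpha subunit of rod transducin, measured 17480, 16620, 16570 and 18540 CPM in WT retinas 1 to 4 and 1429 to 5048 CPM (median 2771) in the vehicle retinas. Its level was 5.65-fold lower (log2 fold change -2.50 ± 0.25, adjusted p = 1.08e-06). The groups did not overlap, and vehicle retina 5 was lowest and retina 7 highest. Other genes of the visual cascade fell by different amounts. Gnb1, the beta subunit of rod transducin that many other cells also use, was 4.49-fold lower, and Pdc, phosducin, which binds those beta subunits, was 4.64-fold lower. Grk1, a photoreceptor kinase of the shutoff step, fell 4.297-fold and Rgs9bp, the membrane anchor of the complex that speeds transducin shutoff, 4.93-fold, whereas Sag, the rod arrestin, fell 2.68-fold (adjusted p = 2.07e-05). Sag thus ran from 1519 to 3690 CPM in the vehicle retinas against 6429 to 7123 CPM in WT.

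Among genes that make and read cGMP, Gucy2f, a photoreceptor guanylate cyclase, stood at 411, 449.9, 355 and 462 CPM in WT and at 37.7 to 91.9 CPM (median 63.2) in the vehicle retinas. It was 6.28-fold lower (log2 fold change -2.65 ± 0.21, adjusted p = 1.26e-07) with no overlap. Cngb1, a subunit of the rod cGMP-gated channel, was 4.83-fold lower (204 to 501 CPM, median 321, against 1704, 1682, 1524 and 1794 CPM). The mutated gene Pde6b was 5.28-fold lower and its partner Pde6a, the other catalytic subunit, which carries no rd10 mutation, 4.45-fold lower, so the transcripts of both catalytic subunits were reduced. Of the disc genes, Prph2, a tetraspanin of the disc rim, measured 5179, 4825, 4877 and 5413 CPM in WT and 505 to 1389 CPM (median 849) in the vehicle retinas, 5.59-fold lower (adjusted p = 2.72e-07). Rom1, its homologue in the rim, was 4.64-fold lower and Prcd, a small disc membrane protein, 4.25-fold lower. No vehicle retina reached a WT level in any of these genes.

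The 12 photoreceptor transcription factors were all called lower (median -1.44, and all 12 without TMM scaling). Crx, the homeodomain factor of both rods and cones, measured 1287, 1305, 1198 and 1386 CPM in WT and 354 to 531 CPM (median 413) in the vehicle retinas and was 2.97-fold lower (log2 fold change -1.57 ± 0.10, adjusted p = 3.93e-08). Samd11, a corepressor expressed in rods, fell 4.92-fold from 574, 617, 466 and 549 CPM to 61.1 to 159.7 CPM (median 116). Otx2, which photoreceptors share with bipolar cells, was 1.29-fold lower (-0.36 ± 0.050, adjusted p = 2.01e-05), the groups still not overlapping at 219.8 to 246 CPM in WT against 169 to 198 CPM. The promoters of Crx, Cngb1 and Gucy2f are shown because rod genes fell together and each holds TAATCC, the core that CRX and OTX2 are known to bind. RefSeq (GRCm38.p6) gave a promoter, 250 bases before to 50 after the start site, for 23 of the 32 rod genes. Of these 23, 10 (43.5%) held TAATCC or its reverse complement GGATTA on the printed strand. Over all genes with a promoter it was 2199 of 27025 (8.14%), a gene counting if any of its promoters matched. In the 3 sequences, 5′ to 3′ on the strand of the gene, capitals mark TAATCC or GGATTA, which do not overlap here. Crx lies at chr7:15879906-15880205 (− strand) with matches starting at -94 and -21 from the start site, Cngb1 at chr8:95306536-95306835 (− strand) with matches at -58 and -25, and Gucy2f at chrX:142196887-142197186 (− strand) with matches at -84 and -59. A match is a string of letters and not a measured binding site. The share counts every matched gene of the rod lists without using its fold change, and a cause of the fall was not tested.
Crx: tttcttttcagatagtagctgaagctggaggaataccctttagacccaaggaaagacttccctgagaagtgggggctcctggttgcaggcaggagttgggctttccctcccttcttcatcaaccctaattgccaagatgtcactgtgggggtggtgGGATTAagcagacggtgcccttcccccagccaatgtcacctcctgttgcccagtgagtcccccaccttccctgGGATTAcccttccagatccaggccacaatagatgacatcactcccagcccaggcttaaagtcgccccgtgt
Cngb1: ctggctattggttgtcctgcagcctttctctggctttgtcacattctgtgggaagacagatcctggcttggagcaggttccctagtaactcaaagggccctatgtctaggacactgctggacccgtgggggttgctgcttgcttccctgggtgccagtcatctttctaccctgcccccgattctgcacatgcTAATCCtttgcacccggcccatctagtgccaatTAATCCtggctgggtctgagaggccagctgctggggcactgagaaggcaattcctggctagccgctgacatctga
Gucy2f: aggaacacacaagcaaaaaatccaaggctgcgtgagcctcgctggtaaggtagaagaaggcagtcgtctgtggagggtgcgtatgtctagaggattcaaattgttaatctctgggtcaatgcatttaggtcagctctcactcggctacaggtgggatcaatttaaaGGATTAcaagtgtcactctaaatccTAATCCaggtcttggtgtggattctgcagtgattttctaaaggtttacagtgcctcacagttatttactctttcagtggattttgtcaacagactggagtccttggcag

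Genes of the photoreceptor output synapse were split. Of 16 ribbon synapse genes 12 were lower and 2 higher (median -1.05), and 11 lower and 4 higher without TMM scaling. Unc119, a lipid-binding protein abundant in photoreceptors, fell 3.24-fold, and Rims2, an active zone protein that helps gather calcium channels at the ribbon, fell from 446, 498, 408 and 485 CPM to 198 to 246 CPM (median 224; log2 fold change -1.03 ± 0.066, adjusted p = 3.61e-08). Complexin 3 (Cplx3), which amacrine cells also express, rose 1.26-fold from 462 to 508 CPM in WT to 531 to 666 CPM, and bassoon (Bsn), a scaffold of ribbon and conventional synapses, rose 1.25-fold. Piccolo (Pclo) and synaptophysin (Syp), which many retinal synapses contain, gave log2 differences of 0.08 (95% interval -0.08 to 0.25) and -0.08 (-0.18 to 0.03), with overlapping groups, and the sign for Syp turned positive without TMM scaling.

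Of 8 genes that handle retinoids in photoreceptors 6 were lower and none higher (median -1.64), although without TMM scaling 2 were called higher. Rbp3, the interphotoreceptor retinoid-binding protein, fell 2.72-fold from 5455, 5282, 5202 and 5709 CPM to 1404 to 2685 CPM (median 1930). Rdh11, a retinol dehydrogenase that is not restricted to photoreceptors, fell 1.78-fold and Abca4, the retinoid flippase of the disc rim, 4.28-fold. The 2 that did not pass were Retsat, a retinol saturase, with a log2 difference of 0.06 (95% interval -0.10 to 0.22), and Stra6, a retinol transporter of the pigment epithelium, with 0.44 (-0.01 to 0.89). Channels of photoreceptors went down alongside. Kcnv2, a subunit of a rod and cone potassium channel, measured 680, 731, 562 and 713 CPM in WT and 87.2 to 189 CPM (median 122) in the vehicle retinas. It was 5.06-fold lower with no overlap, and Ano2, a calcium-gated chloride channel of photoreceptor terminals, was 2.99-fold lower. Over the 15 potassium and chloride channel genes of the list these 2 were the ones called lower and 10 were called higher (median 0.51), among them Kcnc1, a fast potassium channel of inner neurons, at 1.59-fold (238 to 275 CPM, median 262, against 167, 167, 154 and 164 CPM).

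Genes of rod energy metabolism were mostly lower. Pfkfb2, which sets the level of a glycolysis activator and is abundant in photoreceptors, fell 4.07-fold, and Pkm, pyruvate kinase, fell 1.57-fold from 1092 to 1172 CPM to 661 to 807 CPM. In the list of 11 rod metabolism and cone support genes 7 were lower and 1 higher, and 7 and 4 without TMM scaling. Basigin (Bsg), a chaperone of lactate transporters, differed by -0.02 on the log2 scale (95% interval -0.11 to 0.08), a value whose sign turned without TMM scaling. None of 26 nuclear genes of oxidative phosphorylation was higher and 20 were lower (median -0.24), but this direction depended on the scaling, since 4 were higher and 8 lower (median -0.03) by library size alone. Ndufa10, a subunit of complex I, was lower in both, 1.38-fold with TMM (96.1 to 111 CPM, median 106, against 149.7, 142, 138 and 148 CPM). Cox6c, of complex IV, was 1.57-fold lower, a value that is uncertain where its reads could also fall on processed copies of the gene.

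Cone genes did not follow the rods. Of 15 tested, 9 were higher and 4 lower (median 0.34, or 11 higher and 2 lower without TMM scaling). Pde6c, the cone phosphodiesterase subunit, rose 1.72-fold from 191, 184, 172 and 181 CPM to 284 to 358 CPM (median 304; adjusted p = 4.15e-07). Slc24a2, the cone sodium-calcium exchanger, rose 1.48-fold and Arr3, cone arrestin, 1.55-fold, and for all 3 every vehicle retina lay above every WT retina. Gnb3, a transducin subunit that cones and ON bipolar cells share, rose from 466, 450, 425 and 423 CPM to 651 to 989.9 CPM (median 843; 1.896-fold). The cone opsins were different. Opn1sw, the short-wavelength opsin, measured 529.7, 511, 448 and 506 CPM in WT and 297 to 550.4 CPM (median 340.4) in the vehicle retinas, 1.37-fold lower with an adjusted p of 0.0104, and 1 vehicle retina, retina 7 at 550.4 CPM, lay above all WT retinas. Opn1mw, the middle-wavelength opsin, differed by 0.07 on the log2 scale (95% interval -0.04 to 0.19), with overlapping groups. Thrb, the thyroid hormone receptor that directs the middle-wavelength opsin, was 1.61-fold lower (54.6 to 68.9 CPM, median 60.9, against 95.1, 104, 95.01 and 99.6 CPM) and Kcne2, a potassium channel subunit, 1.27-fold lower. The calls for Opn1sw and Kcne2 were lost under library size scaling (adjusted p = 0.101 and 0.0540), and that for Opn1sw also in the RD9 retinas alone (0.326) and in males alone (0.2901). The other lower member of the list was Grk1, described above, which rods also use.

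Markers of the inner neurons were higher as a rule and by moderate amounts. The background share of 31.6% stands against 12 of 14 bipolar identity genes (median 0.57), 16 of 20 amacrine genes (0.51), 7 of 9 horizontal cell genes (0.69) and 14 of 15 ganglion cell genes (0.41). Isl1, an ON bipolar and ganglion cell factor, measured 69.3, 75.4, 64.97 and 71.6 CPM in WT and 127 to 156 CPM (median 149) in the vehicle retinas, 2.08-fold higher (log2 fold change 1.06 ± 0.059, adjusted p = 1.4e-08). The 8 vehicle values fell within a narrow band, well above WT. Cabp5, a calcium-binding protein of bipolar cells, rose 1.72-fold from 111, 110.3, 108 and 112 CPM to 167 to 206 CPM (median 195). Of the amacrine genes, Tfap2a, a factor that specifies these cells, rose 1.58-fold and Chat, the enzyme of acetylcholine synthesis in starburst cells, 1.58-fold. Among horizontal cell genes, Onecut2, a transcription factor, rose 2.06-fold from 8.596, 8.61, 7.33 and 7.91 CPM to 15.1 to 18.7 CPM (median 16.6) and Slc4a3, an anion exchanger, rose 1.61-fold. Ganglion cell genes included Ebf3, a transcription factor, at 1.58-fold and Gap43, a growth cone protein, at 1.55-fold. For these markers, a larger share of such cells in the tissue and more transcript per cell cannot be told apart. The same holds for the cone genes above and the Müller glia genes below.

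Some inner retinal markers did not pass the test. Th, which makes dopamine, differed by 0.21 on the log2 scale (95% interval -0.06 to 0.49), Gjd2, the connexin of AII amacrine gap junctions, by -0.04 (-0.15 to 0.07), with its sign turned by library size scaling, and Penk, an opioid precursor, by 0.06 (-0.90 to 1.02). By library size alone Th (adjusted p = 0.00966) and Gjd2 (0.0121) were called higher. The wide interval for Penk goes with WT retinas that ranged from 7.13 to 79.7 CPM. Calb1, calbindin of horizontal cells, differed by 0.03 (-0.06 to 0.11), which is inside a 1.25-fold change, and Opn4, melanopsin, by 0.36 (-0.03 to 0.75). Both were called higher by library size alone (adjusted p = 6.54e-05 and 0.0198), and Opn4 also without WT retina 3 (0.63, adjusted p = 0.00238). In the mGluR6 cascade, by which ON bipolar cells read photoreceptor glutamate, 11 of 12 genes were higher (median 0.59). Gpr179, which anchors the shutoff proteins of that cascade, rose 2.14-fold from 163, 177, 152 and 145 CPM to 286 to 393 CPM (median 342), Gnao1, its G protein, 1.49-fold, and Trpm1, its cation channel, 1.82-fold. The remaining member went the other way: Lrit3, which photoreceptors make and which recruits the channel across the synapse, fell from 82.9, 92.2, 66.5 and 78.4 CPM to 30.1 to 46.02 CPM (median 34.5; 2.22-fold, adjusted p = 7.32e-07).

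**Figure D3:**
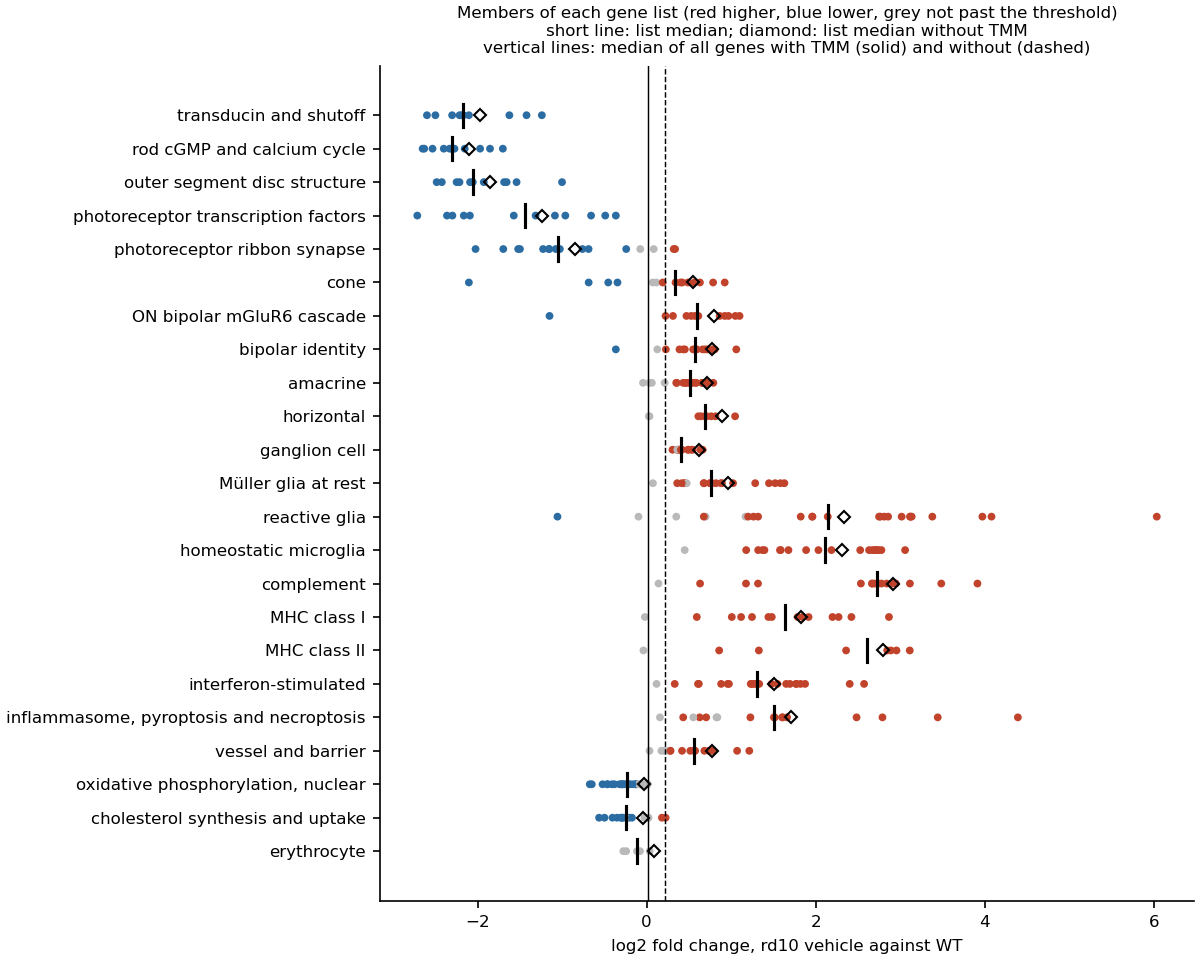
Log2 fold change (vehicle minus WT) of the members of 23 gene lists, a point per gene, with a line at the list median, a diamond at its median without TMM scaling and vertical lines at the medians of all genes. The rod lists centre between -2.31 and -2.06, the bipolar, amacrine and ganglion lists between 0.41 and 0.57 and complement at 2.72.

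Müller glia, which span the retina and support its neurons, showed 18 of 20 resting markers higher and none lower (median 0.76). Apoe, a lipid carrier that microglia also make, measured 792, 522, 990.3 and 420.3 CPM in WT and 1997 to 2213 CPM (median 2131) in the vehicle retinas, 3.09-fold higher (log2 fold change 1.63 ± 0.18, adjusted p = 1.97e-06). Clu, clusterin, rose 2.99-fold, Slc1a3, the glial glutamate transporter, 1.71-fold, and Dkk3, a secreted protein, 1.68-fold. Glul, glutamine synthetase, rose 1.36-fold (1977 to 2848 CPM, median 2652, against 1911, 1856, 1924 and 1851 CPM) and Rlbp1, a retinaldehyde-binding protein of Müller glia and pigment epithelium, 1.37-fold. Crym, a thyroid hormone binding protein, rose 2.87-fold from 65.95 to 74.03 CPM to 161 to 246 CPM, while Car2, a carbonic anhydrase, differed by 0.07 (95% interval -0.03 to 0.18). Ttc3, a ubiquitin ligase (1.41-fold), and Meg3, a long noncoding RNA (1.61-fold), were also among the 10 genes with the largest rise in CPM, and neither is restricted to glia.

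Reactive glia genes rose further, 20 of 25 being higher and 1 lower (median 2.14). Gfap, the intermediate filament that Müller glia make under stress, measured 44.9, 39.98, 32.6 and 33.95 CPM in WT and 165 to 578 CPM (median 243) in the vehicle retinas, 7.24-fold higher (adjusted p = 1.22e-06). Serpina3n, a protease inhibitor, stood at 30.2, 4.49, 42.2 and 3.31 CPM in WT and 136 to 299 CPM (median 158) in the vehicle retinas (8.67-fold), and its WT retinas 1 and 3 were several times higher than 2 and 4. Its log2 fold change was 3.12 with all 4 WT retinas, 3.79 without WT retina 3 and 5.48 against WT retinas 2 and 4 alone. A2m, a broad protease inhibitor, was 8.68-fold higher (log2 fold change 3.12, or 4.26 against WT retinas 2 and 4), Cp, the ferroxidase ceruloplasmin, 2.49-fold, and Steap4, a metalloreductase, 16.9-fold (6.83 to 29.4 CPM, median 9.95, against 0.765, 0.492, 1.26 and 0.267 CPM). Bcl3, a regulator of NF-kappa B, rose from 0.854, 0.634, 0.6405 and 0.608 CPM to 4.504 to 26.9 CPM (median 9.94; 15.7-fold) and Edn2, the endothelin that photoreceptors under stress release, from 9.52, 8.5, 5.93 and 6.41 CPM to 24 to 81.5 CPM (median 56.8), an example chosen after its values were seen. Fgf2, a growth factor that protects photoreceptors, was 3.89-fold higher. Of the interleukin-6 family receptors, Il6st, the shared signalling chain, rose 1.598-fold while Lifr, the chain that binds leukemia inhibitory factor (LIF), fell 2.08-fold from 114, 121, 93.2 and 119.5 CPM to 45.9 to 62.6 CPM (median 52.5).

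Vehicle retina 4 stood apart in this group, and its values set several folds. Among 15980 genes with a mean of at least 1 CPM in the vehicle group, 64 were more than 3-fold higher in retina 4 than in any other vehicle retina, 14 in retina 1 and none in the other 6. Of the genes described next, Lif, Socs3, Ccl2, Timp1, Fosl1 and Arc were chosen after their values were seen. Lif measured 0.4805, 0.444, 0.493 and 0.401 CPM in WT, 209.5 CPM in vehicle retina 4 and 3.02 to 4.83 CPM in the other 7, so that all vehicle retinas exceeded WT while the fitted 65.5-fold (log2 fold change 6.03, or 3.18 without retina 4) rests largely on retina 4. Socs3, a feedback inhibitor of that signalling, measured 246 CPM in retina 4, 12.1 to 19.02 CPM in the other 7 and 3.63 to 5.11 CPM in WT. Flnc, an actin cross-linker, measured 406 CPM against 15.1 to 19.4 CPM and 1.65 to 3.12 CPM in WT. Ccl2, a chemokine for monocytes, measured 50.9 CPM in retina 4, 0.157 to 0.605 CPM in the other 7 and 0 to 0.131 CPM in WT, and its fitted fold is not given because 1 WT retina had no count. Timp1, an inhibitor of matrix proteases, ranged over 4.16 to 24.1 CPM, median 4.94, against 0.297 to 1.81 CPM in WT. Fosl1 and Arc, both induced early after stimulation, measured 94.99 and 72.8 CPM in retina 4 and did not pass the test (adjusted p = 0.0615 and 0.0555), but passed without retina 4 (log2 fold changes 0.49 and 0.55, adjusted p = 0.000892 and 0.01298). The stress factors Atf3 and Jun also did not pass, with 40.1 and 111 CPM in retina 4 and medians of 7.63 and 39.3 CPM. Without retina 4 Atf3 passed (0.50, adjusted p = 0.0357), as it did in the RD9 retinas alone (adjusted p = 0.00827), and Jun did not. Leaving out retina 4 gave 6449 genes higher and 6104 lower. What sets retina 4 apart was not tested.

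**Figure D4:**
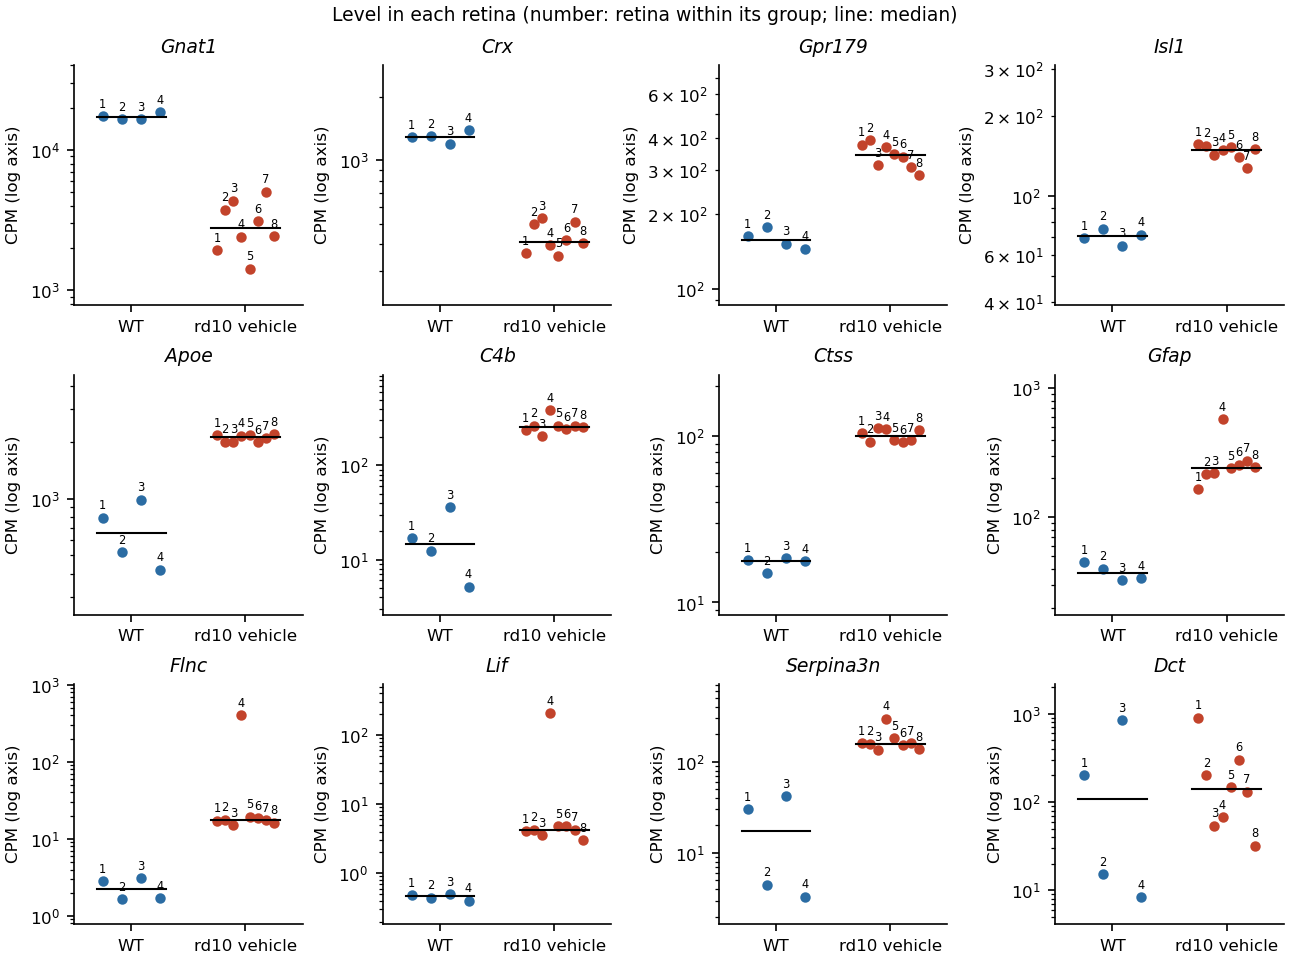
CPM (log axis) of 12 genes in each of the 4 WT and 8 vehicle retinas, a panel per gene. Gnat1 and Crx lie lower and Gpr179, Isl1, Ctss and C4b higher in every vehicle retina; Lif and Flnc have a lone high point in vehicle retina 4, and Dct spans 8.34 to 844 CPM among WT retinas alone.

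Microglial genes were mostly higher. Of 20 homeostatic microglia genes 19 were higher and none lower (median 2.11), and their summed level ran from 312 to 355 CPM in the vehicle retinas against 67.5 to 103.7 CPM in WT. Cx3cr1, the fractalkine receptor, measured 4.13, 3.63, 4.86 and 3.66 CPM in WT and 16.8 to 20.01 CPM (median 18.6) in the vehicle retinas (4.55-fold, adjusted p = 1.66e-09). Its ligand Cx3cl1, which neurons make, rose 1.45-fold and the scavenger ligand Cxcl16 1.93-fold. Among 23 disease-associated microglia genes 21 were higher and 1 lower. Clec7a, a receptor for fungal glucans that marks this state, rose from 0.178, 0.254, 0.411 and 0.311 CPM to 3.58 to 4.68 CPM (median 4.37; 14.7-fold) and Ctss, cathepsin S, from 17.99, 14.9, 18.4 and 17.7 CPM to 92.5 to 112 CPM (median 99.8; 5.88-fold, adjusted p = 9.49e-11). The member called lower was Fabp5, a fatty acid carrier, at 1.59-fold, and that call was lost without WT retina 3, at 20.8 CPM (adjusted p = 0.471). It was also lost by DESeq2 (adjusted p = 0.0511), by limma-voom (0.0885), by library size alone (0.133) and in females alone (0.790), among other alternatives. More microglia and more transcript per microglial cell cannot be told apart here.

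Complement genes had the highest median of the lists tested, 2.72, with 15 of 16 higher and none lower. C4b, of the classical pathway, measured 16.8, 12.4, 36.1 and 5.16 CPM in WT and 204 to 389 CPM (median 259) in the vehicle retinas (15.1-fold). Its fold moved with the WT retinas, the log2 fold change being 3.91 ± 0.40 with all 4, 4.54 without WT retina 3 and 4.92 against WT retinas 2 and 4 alone. C3, the hub of all pathways, rose 11.2-fold from 4.004, 3.76, 4.35 and 3.41 CPM to 21.1 to 82.7 CPM (median 41.9) and C1qb, a chain of the recognition protein, 6.495-fold. Inhibitors rose too. Cfi, the protease that degrades C3b and C4b, rose from 2.58, 2.08, 2.17 and 1.94 CPM to 12.5 to 14.8 CPM (median 14.1; 6.34-fold, adjusted p = 4.72e-10), and Serping1, the C1 inhibitor, from 14.3, 7.33, 17.97 and 3.96 CPM to 79.4 to 131 CPM (median 90.2; 8.66-fold). Against WT retinas 2 and 4 alone the log2 fold change of Serping1 moved from 3.11 to 4.06. In none of the complement genes named here did the groups overlap.

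Antigen presentation followed in both classes. Of 14 class I genes 13 were higher (median 1.63); H2-Q4 rose 4.82-fold from 3.08 to 4.42 CPM to 16.8 to 23.4 CPM, a value that is uncertain because its family holds near-identical copies, and Tapbp, tapasin, differed by -0.02 (95% interval -0.19 to 0.15). Of 8 class II genes 7 were higher (median 2.60), with H2-Ab1 at 5.13-fold, while Ciita, the activator of class II transcription, differed by -0.04 (-0.41 to 0.33). Interferon-stimulated genes were higher in 21 of 22 cases (median 1.31). Against WT retinas 2 and 4 alone this median was 1.94, that of the class I genes 1.85 and that of the class II genes 3.11. Gbp2, a guanylate-binding protein, rose from 3.65, 2.92, 5.34 and 2.71 CPM to 16.6 to 39.9 CPM (median 19.7; 5.95-fold) and Oasl2, a relative of the antiviral oligoadenylate synthetases, 3.14-fold. Isg15, a ubiquitin-like modifier chosen after its values were seen, rose from 0.712, 0.936, 2.004 and 0.934 CPM to 3.35 to 5.43 CPM (median 3.904; 3.53-fold).

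The promoters of Gbp2 and Isg15 are shown for the interferon group and that of Socs3 for the LIF response gene described above. The core that interferon response factors are known to bind is GAAA followed by 2 bases of any kind and GAAA again. Searched on both strands, it occurred in 10 of the 16 interferon-stimulated genes matched (62.5%, of 22) and in 4 of 12 matched class I genes (33.3%, of 14). Over all genes with a promoter it occurred in 1079 of 27025 (3.99%). The palindrome TTCNNNGAA (N is any base), which STAT factors are known to bind, occurred in 3 of 21 matched reactive glia genes (14.3%, of 25). Over all genes with a promoter it occurred in 2582 (9.55%). These shares also count list genes without using their fold changes, and a cause of the rises was not tested. Capitals mark these matches on either strand, 5′ to 3′ on the strand of the gene, in RefSeq sequence of GRCm38.p6. Gbp2 lies at chr3:142620413-142620712 (+ strand) with a match at -59, Isg15 at chr4:156200769-156201068 (− strand) with overlapping matches at -78, -72 and -66, and Socs3 at chr11:117969317-117969616 (− strand) with a match at -154.
Gbp2: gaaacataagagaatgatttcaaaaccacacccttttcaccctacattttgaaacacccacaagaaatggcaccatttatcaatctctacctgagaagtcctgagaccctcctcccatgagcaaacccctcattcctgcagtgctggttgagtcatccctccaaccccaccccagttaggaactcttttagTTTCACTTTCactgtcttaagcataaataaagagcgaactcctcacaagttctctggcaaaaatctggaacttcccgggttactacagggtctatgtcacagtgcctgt
Isg15: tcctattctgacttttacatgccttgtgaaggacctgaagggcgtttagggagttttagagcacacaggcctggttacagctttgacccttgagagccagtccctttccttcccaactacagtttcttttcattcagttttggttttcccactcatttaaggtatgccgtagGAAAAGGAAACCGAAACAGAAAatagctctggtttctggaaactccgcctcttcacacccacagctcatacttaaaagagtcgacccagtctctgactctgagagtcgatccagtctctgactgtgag
Socs3: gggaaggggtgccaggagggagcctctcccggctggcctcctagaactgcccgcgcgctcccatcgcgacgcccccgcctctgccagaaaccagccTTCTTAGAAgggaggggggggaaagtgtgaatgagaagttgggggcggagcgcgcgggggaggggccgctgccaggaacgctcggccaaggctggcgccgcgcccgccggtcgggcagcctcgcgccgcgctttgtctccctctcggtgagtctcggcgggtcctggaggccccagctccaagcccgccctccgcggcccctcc

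Cell death genes moved by list. Of 17 genes of the inflammasome, pyroptosis and necroptosis 13 were higher and none lower (median 1.51). Nlrp3, the sensor of the inflammasome, was low at 0.0493 to 0.0742 CPM in WT and 0.365 to 0.623 CPM in the vehicle retinas, and Casp1, its protease, rose from 0.0493 to 0.159 CPM to 1.69 to 3.19 CPM. Of 18 Bcl2 family and caspase genes 10 were higher and 3 lower: Bcl2l1, which encodes the survival factor BCL-XL, rose 1.24-fold, Pmaip1, which encodes the death factor NOXA, 2.11-fold, and Bcl2 itself fell 1.298-fold. Of 13 genes tied to cGMP-driven rod death 7 were higher and 4 lower, the latter near the background of 30.2%. Without TMM scaling 8 were higher and none lower. Prkg1, a cGMP-dependent kinase, rose 1.57-fold from 26.6, 29.6, 35.4 and 25.2 CPM to 42.4 to 49.9 CPM (median 46.1) and Capn5, a calpain of the retina, 1.48-fold, whereas Parp2, a poly-ADP-ribose polymerase, fell 1.27-fold with TMM and lost its call without it, as did Bcl2. Proliferation genes were not raised as a list, 2 of 15 being higher and 5 lower, the latter near the background of 30.2%. Without WT retina 3 the list gave 4 higher and 4 lower, and against WT retinas 2 and 4 alone 5 and 5. Ccna2, cyclin A2, fell 2.71-fold from 27.6, 30.5, 24.1 and 28.9 CPM to 6.496 to 16.1 CPM (median 10.04) and Aurka, a mitotic kinase, 1.604-fold.

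Stress and lipid genes divided within their lists. Of 17 genes of the unfolded protein response 8 were higher and 6 lower, the latter near the background of 30.2%. Asns, asparagine synthetase, rose 1.37-fold and Herpud1, of protein degradation at the endoplasmic reticulum, 1.36-fold. Atf4, the factor of the integrated stress response, fell 1.55-fold from 321, 330.1, 279 and 332 CPM to 185 to 225 CPM (median 197). Trib3, which ATF4 is known to induce, fell 2.03-fold. All 3 metallothioneins, which bind zinc and copper, were higher: Mt1 rose from 43.2, 40.1, 51.1 and 31.2 CPM to 101 to 437 CPM (median 166; 4.82-fold), Mt2 9.14-fold and Mt3 1.87-fold, with retina 4 highest for Mt1 and Mt2. Of 20 antioxidant genes 12 were higher and 1 lower. Prdx6, a peroxiredoxin, rose 2.44-fold from 103, 85.7, 118 and 78.95 CPM to 209 to 264 CPM (median 231) and Gpx4, the lipid peroxide reductase, was 1.92-fold lower, a value that is uncertain where its reads could also fall on processed copies. Cholesterol synthesis and uptake leaned down, 10 of 16 lower and 2 higher, but 2 lower and 3 higher without TMM scaling. Lss, lanosterol synthase, fell 1.27-fold (54.3 to 71.6 CPM, median 61.4, against 72.97, 83.7, 80.9 and 78.1 CPM), a call that library size scaling ended (adjusted p = 0.0736). Of 2 cholesterol exporters, Abca1 rose 1.59-fold and Abcg1 fell 1.56-fold, and neither overlapped between groups. Of 30 lysosome genes 20 were higher and 3 lower, with Laptm5, of blood-lineage cells, at 5.204-fold higher and Gla, alpha-galactosidase, at 1.52-fold lower.

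Vessel and matrix genes were higher without exception among those called, 14 of 18 (median 0.56) and 12 of 19 (median 0.67). Kdr, which endothelium, Müller glia and some neurons use as a VEGF receptor, rose 2.32-fold, and Flt1, the other VEGF receptor of endothelium, from 122, 129, 109 and 108 CPM to 179 to 229 CPM (median 191; 1.69-fold). Thbs1, thrombospondin 1, an antiangiogenic matrix protein, rose from 8.58, 5.44, 12.7 and 6.58 CPM to 27.7 to 57.98 CPM (median 40.6; 4.92-fold, adjusted p = 9.45e-07) and Tnc, tenascin C, 2.05-fold. In the list of Wnt, Notch and Hedgehog genes 15 of 21 were higher and 2 lower. The receptor Notch1 rose from 39.9, 38.9, 40.3 and 32.6 CPM to 84.1 to 105 CPM (median 91.95; 2.46-fold) and its target Hey2 1.78-fold. Jag1, a Notch ligand, went down from 202, 232, 176 and 193 CPM to 42.5 to 92.3 CPM (median 56.8; 3.35-fold, adjusted p = 1.3e-06) and Hes5, another Notch target, 2.22-fold. Hes5 overlaps a gene on the opposite strand, and because the libraries carry no strand their reads cannot be told apart. The ligand and the receptor thus moved apart, and both held without TMM scaling.

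Of 18 immediate early genes 5 were higher and 4 lower, below the background shares of 31.6% and 30.2%. The list thus did not stand out from all genes by its calls. Without TMM scaling 9 were higher and 1 lower. Egr1, a zinc finger factor, rose 2.69-fold from 68.1, 71.97, 70.5 and 59.9 CPM to 112 to 387 CPM (median 157), Egr2, chosen after its values were seen, measured 15.1 CPM in retina 4 and 0.457 to 0.885 CPM in the other vehicle retinas, and Egr4 fell 1.77-fold. Host genes of microRNAs differed by family. Mir124a-1hg and Mir124-2hg, hosts of the neuronal miR-124, fell 2.33-fold and 1.99-fold, Mir17hg, host of a cluster tied to proliferation, 3.74-fold (0.843 to 1.17 CPM, median 1.01, against 3.74, 4.96, 2.299 and 3.96 CPM), and the long noncoding RNA Tug1 1.33-fold, whereas Miat rose 1.74-fold. Of 13 such genes 6 were higher and 4 lower under both scalings, while the list median moved from -0.03 to 0.17. With TMM the lower count was near the background of 30.2%.

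Some steep changes by fold were in little-studied transcripts. Gm45861 (chr8:27447100-27620917, + strand) measured 0.409, 0.571, 0.411 and 0.252 CPM in WT and 9.67 to 26.6 CPM (median 19.5) in the vehicle retinas, 44.4-fold higher (log2 fold change 5.47 ± 0.37, adjusted p = 4.66e-08). It spans the gene Poteg on the same strand, so the exons behind its reads are uncertain. Ccl27a (chr4:41769467-41774247, − strand), a skin chemokine gene, measured 11.5, 13.2, 12.1 and 13.8 CPM in WT and 0.311 to 0.465 CPM (median 0.382) in the vehicle retinas, 32.7-fold lower (log2 fold change -5.03 ± 0.11, adjusted p = 8.13e-13). It belongs to a cluster with near-identical copies and its end overlaps Il11ra1, an interleukin receptor gene on the other strand that was itself lower (16.5 CPM in WT against 10.7 CPM), so the source of its reads is uncertain. Rncr4, a noncoding RNA of the photoreceptor layer, fell 7.196-fold from 93.8, 96.2, 92.6 and 107 CPM to 8.52 to 19.3 CPM (median 13.6). A930036K24Rik, which starts 370 bases from Gnat1 and does not overlap it, fell 9.52-fold. Whether any of its reads come from its neighbours was not tested. Gm16055, which overlaps Umad1 on the opposite strand, fell 16.5-fold, and without strand the reads of Gm16055 and Umad1 cannot be told apart.

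Markers of tissue next to the retina varied within the groups. Of 11 pigment epithelium genes 2 were called higher, Rlbp1 above and Ttr, transthyretin, at 3.47-fold (69.95 to 172 CPM, median 121, against 34.9, 32.02, 50.1 and 25.6 CPM), and their summed level was 575 to 1602 CPM in WT and 889 to 1989 CPM in the vehicle retinas. Dct, a melanin enzyme chosen after its values were seen, measured 200.1, 15.1, 844 and 8.34 CPM in WT and 31.9 to 901 CPM (median 139.5) in the vehicle retinas, and Optc, opticin of the ciliary body, 111, 35.4, 167 and 5.21 CPM in WT and 15.9 to 166 CPM (median 122) in the vehicle retinas. WT retinas 1 and 3 were high and 2 and 4 low for both. Of 10649 genes with a WT mean of at least 10 CPM, 92 differed 3-fold or more between the lowest and the highest WT retina, and in 83 of these retinas 1 and 3 lay above 2 and 4 while the reverse held in 0. Against WT retinas 2 and 4 alone, an alternative added after the data were seen, 6331 genes were higher and 5873 lower and 7 of the 11 pigment epithelium genes were higher. The part of adjacent tissue in the results was not tested. Hemoglobin and related genes, summed at 8.61 to 29.3 CPM in WT and 11.7 to 30.6 CPM in the vehicle retinas, gave 0 calls of 5. Of 12 leukocyte genes tested 9 were higher, including Lyve1 of tissue macrophages (1.56-fold) and Ccr2 of monocytes, at 0 to 0.0178 CPM in WT and 0.0629 to 0.423 CPM in the vehicle retinas. The 18 leukocyte genes found in the data, tested or not, summed to 14.2 to 20.3 CPM in WT and 27.3 to 36.0 CPM in the vehicle retinas. Of 4 optic nerve glia genes 3 were higher, among them Mbp, of myelin, by 1.22-fold. Cxcl1, a neutrophil chemokine, had a level equal to a single count in each WT retina and 0.0593 to 4.59 CPM (median 0.1799) in the vehicle group.

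Sex and prefix were compared within the design. A test of whether the genotype difference itself differed between females and males called 0 of 20763 genes (844, or 4.06%, had an unadjusted p below 0.05 by edgeR), and DESeq2 called 1 in each direction. Between the 4 RD10 and the 3 RD9 vehicle retinas edgeR called 1 of 20582 genes (0.00486%), and 1075 (5.22%) had an unadjusted p below 0.05. DESeq2 called 27 genes higher and 60 lower in RD10, and without vehicle retina 5 edgeR called 10 and 273. The gene edgeR called with every retina in was Hkdc1, a hexokinase relative, with a log2 difference of -1.14 (RD10 minus RD9, adjusted p = 0.000896). Hkdc1 rose 2.92-fold against WT (24.1 to 56.8 CPM, median 28.7, against 15.7, 14.2, 11.6 and 9.73 CPM). Against WT, the RD9 retinas alone gave 5424 genes higher and 4531 lower and the RD10 retinas alone 5915 and 5079.

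Retinas of rd10 DR mice, younger and never in light, help place these differences, although the comparisons share samples and age and light cannot be told apart. Of 20850 genes, 4572 (21.9%) were higher and 4301 (20.6%) lower in the vehicle retinas than in the DR retinas, and of 20051 genes 2914 (14.5%) were higher and 2041 (10.2%) lower in DR than in WT. Prph2 and Jag1 had intermediate means in DR. Prph2 had group means of 5099 CPM in WT, 2803 CPM in DR and 909.8 CPM in the vehicle retinas with all 24 retinas scaled together, and Jag1 202, 138 and 60.2 CPM. Another set was at or above its vehicle level already in DR: Fgf2 stood at 23.4 CPM in WT, 148 in DR and 91.1 in the vehicle retinas, Gnb3 at 443, 887 and 839 CPM, and Bcl3 at 0.688, 12.9 and 10.8 CPM. The log2 difference of vehicle minus DR was -0.70 for Fgf2 (adjusted p = 0.00204), -0.08 for Gnb3 (0.556) and -0.26 for Bcl3 (0.585). Notch1 lay nearby, with 1.11 for DR minus WT and 0.20 for vehicle minus DR (adjusted p = 0.0336). Ccl27a was at 12.7 CPM in WT, 0.221 in DR and 0.385 in the vehicle retinas, higher in the vehicle retinas than in DR by 0.79 on the log2 scale (adjusted p = 0.0186).

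For Flt1, Ttr and Thbs1 the test called no difference between DR and WT (adjusted p = 0.905, 0.296 and 0.122), and the vehicle retinas were higher than DR. Flt1 stood at 118 CPM in WT, 117 in DR and 198 in the vehicle retinas, and Ttr at 35.8, 26.3 and 124 CPM. Thbs1 measured 8.38, 12.1 and 41.1 CPM, with a log2 difference of vehicle minus DR of 1.76 (adjusted p = 3.96e-06). Gm45861 measured 0.413, 1.41 and 18.2 CPM, higher in DR than in WT by 1.78 on the log2 scale (adjusted p = 0.0213) and higher in the vehicle retinas than in DR by 3.71 (adjusted p = 1.08e-05). Cx3cr1, C4b and Apoe had intermediate means in DR. Cx3cr1 had 14.7 CPM in DR against 18.6 in the vehicle retinas, C4b 148 against 266 and Apoe 1310 against 2112, all above their WT means of 4.09, 17.7 and 685 CPM.

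**Figure D5:**
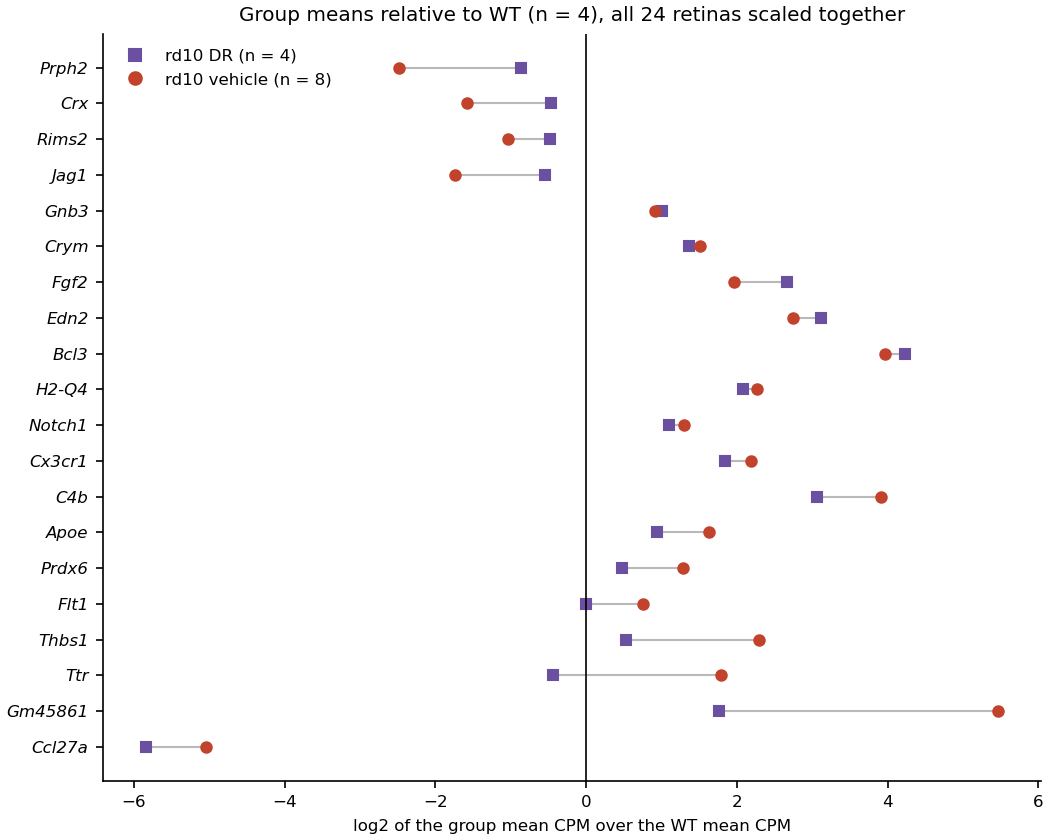
Log2 of the mean CPM of 20 genes in rd10 DR (n = 4) and rd10 vehicle (n = 8) retinas over the WT mean (n = 4), with all 24 retinas scaled together and a pair of points per gene. Fgf2, Gnb3 and Bcl3 sit as high or higher in DR, while Flt1, Ttr and Thbs1 lie closer to the WT line in DR and higher in the vehicle retinas.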

How the data were processed

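Bulk RNA sequencing was done on whole retinas from unstranded poly(A) libraries. Per the labels and the submitters' processing notes, the authors used Trimmomatic 0.40, STAR 2.7.11b and HTSeq 2.0 with GRCm38, checked reads with FastQC 0.11.9 and RSeQC 5.0.1, and deposited raw counts per gene, nuclear and mitochondrial genes in separate tables; whether reads were single or paired is stated differently between the sources. The deposited tables also hold the authors' fold changes and p-values, which were not used. The 4 WT columns are repeated in the nuclear table, with 0 of the values differing, and 0 columns of values were left without a sample. Within groups, 34 pairs of libraries differed beyond sampling noise (chi-square per gene 13.8 to 88.0), so none was a repeated library.

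Counts were tested in R 4.3.3 with edgeR 4.0.16 (filterByExpr, TMM, quasi-likelihood test, Benjamini-Hochberg adjusted p under 0.05, glmTreat against 2-fold), on the 12 retinas with group as the only term. A confidence level of 95% was used for intervals. DESeq2 1.42.0 and limma 3.58.1 were alternatives, with other scalings and filters, sex as a term, prefix and sex subsets and leaving out each retina. Data were simulated for the 20763 genes of this comparison, 50 of them changed at each fold, and 20013 passed the filter again. A changed gene that the filter dropped counted as not recovered. The test recovered 38, 74, 90 and 100% of genes changed 1.25-, 1.5-, 2- and 4-fold, with 5 false calls.

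The 45 gene lists, the naming rule and the retinas compared were chosen with earlier results of these data known. Some genes and the relations to 1 of them are not reported here and are left out of the lists. Of 700 list genes 643 were found and 57 were not used here. The lens list had no gene to use, and the cornea, iris and conjunctiva list had 3 genes tested, 2 of them higher. Genes were named by rule: the 10 largest falls and rises in CPM, the 10 largest by fold with at least 10 CPM and no overlap, in each list the 2 lowest p-values per direction with the members that went against the rest or did not pass (where 4 or fewer), Pde6b and 6 marker genes fixed with it, genes whose call ended under an alternative and the lowest p-values between sexes or prefixes; not every gene that the rule gives is described, and other names are marked as chosen after their values were seen. Gene positions are from GENCODE M21 on GRCm38 and matched 99.1% of genes.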

Additional observations from a re-analysis of the deposited data

Results flagged for a closer look

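In groups of 4 to 8 retinas a lone high or low value was looked for by Dixon's test, which by chance marks about 1 in 20 groups. Of 328 groups 38 were marked, and most were vehicle retina 4 as the highest of its group. Nearly all groups tested were those of the genes named here. Some of these genes were chosen after their values, high in retina 4, were seen. The number marked and the part of retina 4 in it therefore follow partly from that choice. Its glial and acute phase genes stood alone: Gfap at 577.8 CPM, C4b 389.4, A2m 324.9, Serpina3n 298.9, Serping1 131.2, C3 82.71, Tnc 57.48, Mt1 436.7, Mt2 28.94, Steap4 29.41, Bcl3 26.93, Timp1 24.1 and Clu 2175 CPM. So did signalling and early response genes, namely Flnc at 405.8 CPM, Egr1 387, Socs3 246.3, Lif 209.5, Jun 111.3, Fosl1 94.99, Arc 72.8, Ccl2 50.87, Atf3 40.12, Gbp2 39.89, Egr2 15.08, Isg15 5.428 and Cxcl1 4.591 CPM. Reactive glia genes took 0.4385% of its nuclear counts.

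Among WT retinas, retina 4 stood apart for Tnc (20.57 CPM), Ccr2 (0 CPM, where the 3 others each had a count) and the share in the 10 most abundant genes (9.118%). WT retina 3 stood apart for Slc24a2 (127.2 CPM) and Fabp5 (20.76 CPM), and WT retina 1 for Bcl3 (0.8542 CPM). In the vehicle group, retina 1 stood apart for Trpm1 (1035 CPM) and Dct (900.6 CPM), retina 8 for Asns (81.35 CPM) and Hey2 (27.7 CPM), and retina 7 for Opn1sw (550.4 CPM).

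The mitochondrial genes sit in a table of their own and enter no comparison above. Tested on their own library totals with edgeR, 4 of 11 were higher (36.4%) and 3 lower (27.3%) in the vehicle retinas. The ribosomal RNA genes mt-Rnr1 and mt-Rnr2 rose by 0.4774 and 0.3288 on the log2 scale, mt-Nd1 by 0.1089 and mt-Co1 by 0.08086. The share scale makes these depend on each other, and mt-Cytb, at 17.4 to 19.6% of mitochondrial counts in the vehicle retinas against 21.5 to 21.9% in WT, was the main one to fall (-0.22).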

How the results depend on the processing

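Scaling by library size alone changed the balance of calls, to 9337 higher and 3574 lower, and turned the sign of 3 genes that had not passed: Syp (0.1268), Bsg (0.1847) and Gjd2 (0.1609). Males alone gave 3935 genes lower. Leaving out each retina in turn gave 6005 to 6784 genes higher and 5635 to 6330 lower. Beyond 2-fold, the 407 higher and 596 lower genes became 1499 and 1524 against 1.5-fold. The higher ones became 645 by library size alone, 782 against WT retinas 2 and 4 only and 613 without WT retina 3 and vehicle retina 4; leaving out each retina gave 308 to 598 higher (598 without WT retina 3) and 493 to 678 lower. Against WT retinas 2 and 4 Dct turned to 4.2924. The sex interaction stayed at 0 to 0 when each vehicle retina was left out and gave 1 and 1 by DESeq2. RD10 against RD9 gave 27 and 60 genes by DESeq2, and 0 to 10 higher and 1 to 273 lower with each retina left out, the highest of both without retina 5. The causes were not tested.

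Of 160 genes named, 140 passed and 127 of these kept their call and direction in each of the 24 alternatives that gave them a value; 6 low genes had none in 1 or 2 of them. The 13 that lost it in at least 1 were Kcne2, Opn1sw, Fabp5, Cxcl1, Pmaip1, Bcl2, Parp2, Egr4, Mbp, Lss, Lif, Ccl2 and Egr2. No paired analysis was possible because WT and vehicle retinas came from different mice, and no source used here says that a number in the sample names marks anything shared between them. Depth limits genes at a few counts, such as Ccr2, Cxcl1 and Nlrp3. In the simulation 38% of 1.25-fold changes were recovered, so small changes can be missed. It changed 50 genes at each fold, a far smaller share than the 61.8% of genes called here. The share recovered may therefore differ in these data.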
